A study of Homo sapiens with 2 samples.

Results

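Albumin-intermediate HepaRG cells were 917 of the 9348 cells that passed the barcode filter, 424 of 4454 in replicate 1 and 493 of 4894 in replicate 2. The members were chosen by 1 transcript: a cell belonged to the class when ALB, the most abundant plasma protein of the liver, made up from 5 to below 50 of every 10000 gene UMIs (unique molecular identifiers, which count captured transcripts). Cells below 5 (albumin-low, 7718 cells) and cells at 50 or more (albumin-high, 713 cells) were the comparison classes. HepaRG, a long-established line of human liver origin, serves as a hepatocyte model in toxicology. Both libraries came from terminally differentiated cultures kept for 7 days and then given the vehicle, 0.1% DMSO (dimethyl sulfoxide), for 24 h; no other treatment was applied to either. The libraries are 1 group and carry the same biological replicate label, so nothing says that they came from separate cultures, and p-values measure only how far these 2 libraries (or, where said, clusters within them) vary, possibly for technical reasons.

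Hepatocytes secrete most plasma proteins, assemble lipoproteins, and clear drugs through oxidation and conjugation. ALB, the fibrinogens and the acute phase proteins are kept on by liver-enriched transcription factors such as HNF4A, and the acute phase group is raised further by inflammatory cytokines. Differentiated HepaRG cultures are known to hold hepatocyte-like cells beside cells with biliary or less mature features. In droplet libraries, RNA released by broken cells can enter every droplet, and RNA from 1 source keeps its genes in 1 ratio.

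The intermediate class was 9.52% of replicate 1 (exact Clopper-Pearson 95% interval 8.67 to 10.4) and 10.1% of replicate 2 (9.24 to 11). These intervals cover counting error only. ALB was detected at a median of 30 UMIs per intermediate cell in replicate 1 and 19 in replicate 2, and 13 and 14 members had 3 or fewer. The limits cut a continuous range. The highest value below the lower limit was 4.991 per 10000 in replicate 1, and the lowest inside was 5.012. Near the lower limit, 40 and 62 cells had 4 to 5 per 10000 and 43 and 29 had 5 to 6, in replicates 1 and 2. The UMIs of each cell were also divided at random into 2 equal parts. Of the cells that were intermediate on the first, 85.4% and 78.6% were intermediate on the second. On the second, 12.4% and 17.2% were low, and 2.15% and 4.25% were high.

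Depth and RNA quality moved with the class. The low, intermediate and high cells of replicate 1 had medians of 17348, 18426 and 20653 UMIs, and those of replicate 2 had 10178, 11074 and 12441. Median mitochondrial shares were 8.43%, 11.1% and 13.5% in replicate 1 and 8.61%, 11.7% and 13.6% in replicate 2. Scrublet, a doublet caller, marked 3 and 0 cells and has not worked here. Of the intermediate cells, 6.13% and 7.91% were among the 4% of cells with the highest doublet scores in their library, against 3.71% and 3.48% of low and 4.58% and 4.42% of high cells. The part of these differences in the results was not tested. The libraries shared 10 cell barcodes.

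The promoters of ALB and the 3 fibrinogen genes are shown because these genes lie on chromosome 4 and the fibrinogens, encoded side by side, varied together within the intermediate cells. They are 300 bases from RefSeq, build GRCh38.p14, 5′ to 3′ on the gene's strand, from 250 bases before to 50 after the start. Capitals mark GTTAAT, a short motif known from promoters of liver genes, and CTGGGAA, a core found in interleukin 6 response elements, on either strand; the motifs do not overlap in these windows. For FGB the lower of 2 listed starts was taken. Of the 5 markers of the class the table held ALB and FGB.
ALB, chr4:73404037-73404336, plus strand: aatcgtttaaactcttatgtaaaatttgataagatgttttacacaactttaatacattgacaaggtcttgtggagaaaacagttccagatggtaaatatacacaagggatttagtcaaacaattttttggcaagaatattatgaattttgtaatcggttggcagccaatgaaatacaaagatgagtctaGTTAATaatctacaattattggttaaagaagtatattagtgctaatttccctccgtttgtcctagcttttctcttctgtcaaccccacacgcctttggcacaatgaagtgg
FGA, chr4:154590693-154590992, minus strand: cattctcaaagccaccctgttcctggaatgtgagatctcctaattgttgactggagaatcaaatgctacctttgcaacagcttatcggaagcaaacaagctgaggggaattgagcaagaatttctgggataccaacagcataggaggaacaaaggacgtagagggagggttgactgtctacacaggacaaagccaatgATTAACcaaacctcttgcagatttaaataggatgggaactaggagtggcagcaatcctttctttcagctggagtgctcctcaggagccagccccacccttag
FGB, chr4:154562730-154563029, plus strand: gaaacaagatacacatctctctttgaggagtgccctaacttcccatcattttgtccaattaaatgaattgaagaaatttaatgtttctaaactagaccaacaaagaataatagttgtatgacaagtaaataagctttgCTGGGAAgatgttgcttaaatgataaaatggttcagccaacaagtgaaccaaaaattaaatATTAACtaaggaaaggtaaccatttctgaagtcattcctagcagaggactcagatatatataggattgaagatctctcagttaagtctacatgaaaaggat
FGG, chr4:154612607-154612906, minus strand: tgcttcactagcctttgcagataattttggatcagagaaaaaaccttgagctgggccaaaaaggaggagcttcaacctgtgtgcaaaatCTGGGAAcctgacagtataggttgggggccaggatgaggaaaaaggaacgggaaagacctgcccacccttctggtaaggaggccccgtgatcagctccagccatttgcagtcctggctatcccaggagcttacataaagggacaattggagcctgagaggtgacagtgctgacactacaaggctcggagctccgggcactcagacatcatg
GTTAAT was in the windows of ALB, FGA and FGB and in 6.88% of 35116 listed promoters, and CTGGGAA was in those of FGB and FGG and in 10.8%.

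Liver genes were higher in intermediate than in albumin-low cells and lower than in albumin-high cells. Counts were summed per library and class and tested with edgeR's quasi-likelihood test with Benjamini-Hochberg adjustment over 15802 genes, ALB left out; a gene was called at an adjusted p below 0.05. Against albumin-low cells 22.8% of all genes were called higher and 22.9% lower, and against albumin-high cells 14.9% and 16.7%. Of 200 tested genes in 9 liver function lists, 134 (67%) were higher and 7 (3.5%) lower than in low cells, with a median log2 fold change of 1.07 where the median of all genes was -0.00. Against high cells 5 were higher and 172 (86%) lower, with a median of -1.58 against 0.00 over all genes. These classes were cut from 1 gene of the same cells, so genes that vary with ALB had to differ between them.

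**Figure D1:**
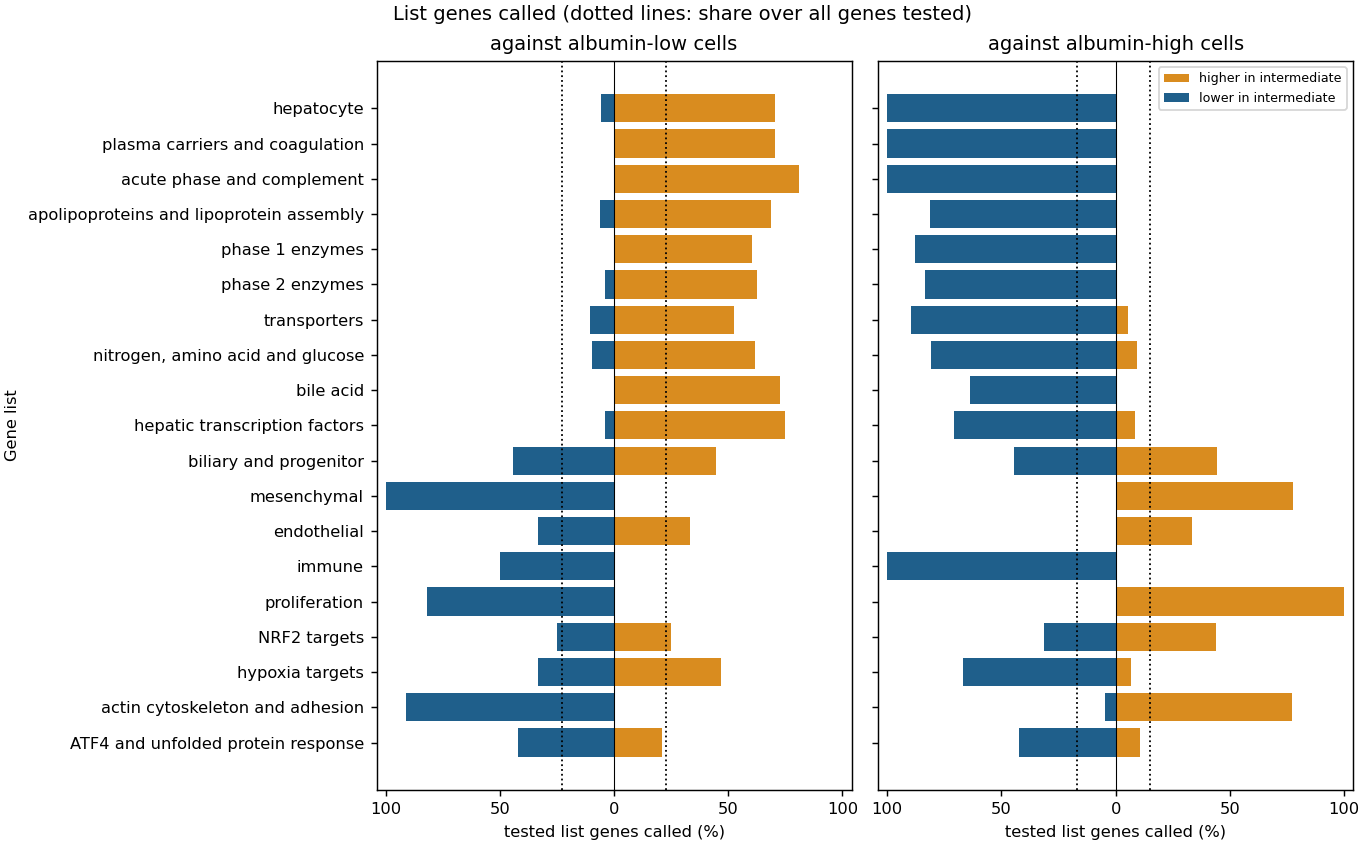
Share of tested genes of each list called higher (right of 0) or lower (left of 0) in intermediate cells against albumin-low cells (left panel) and albumin-high cells (right panel), in percent, edgeR adjusted p below 0.05. Dotted lines give the share over all genes tested, 22.8% and 22.9% on the left and 14.9% and 16.7% on the right; the liver lists lie beyond them on the higher side against low cells and on the lower side against high cells.

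Among the plasma carriers and coagulation factors, 19 of 27 tested genes were higher than in low cells and all 27 were lower than in high cells. Levels are in CPM, counts of a gene scaled to a common total of gene UMIs of the class without ALB. FGB, the fibrinogen beta chain, stood at 42.1 and 51.9 CPM in low cells of replicates 1 and 2, at 623 and 605 in intermediate cells and at 1929 and 1754 in high cells. Its 2 values in each class lay apart from those of the other classes. With 2 values per class this is a description, and 3262 of all 15802 genes were called in both comparisons. The log2 fold change of FGB against low cells was 3.77 (SE 0.06, edgeR adjusted p = 8.5e-34) and against high cells -1.66 (SE 0.05, edgeR adjusted p = 3.3e-24). FGA, the alpha chain, stood at 425 and 409 CPM in intermediate cells and FGG, the gamma chain, at 411 and 413. SERPINA1, the main plasma inhibitor of neutrophil elastase, rose from 134 and 144 CPM in low to 623 and 634 in intermediate cells, and RBP4, the retinol carrier, from 234 and 253 to 608 and 623.

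Other carriers were far below the high class. TF, the iron carrier transferrin, had 3.24 and 3.63 CPM in low, 22.6 and 29.5 in intermediate and 1158 and 1068 in high cells. GC, the vitamin D carrier, had 0.563 and 0.58, then 5.39 and 6.86, then 276 and 247 CPM. KNG1, the kininogen precursor, had 3 and 6 UMIs in all intermediate cells of replicates 1 and 2 together with 64.1 and 58.6 CPM in high cells. AFM, a vitamin E carrier, had 0 CPM in both sets of intermediate cells and 21.2 and 17.7 CPM in high cells. TF, GC and KNG1 were called higher than in low cells, and AFM was not (edgeR adjusted p = 0.413).

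Acute phase and complement genes were higher in 21 of 26 tested genes against low cells and lower in all 26 against high cells. SAA1, an acute phase apolipoprotein, had 377 and 417 CPM in low, 1282 and 1598 in intermediate and 4456 and 4432 in high cells. ORM1, the acid glycoprotein orosomucoid, had 188 and 212, 1348 and 1332, and 3882 and 4217 CPM. HP, which binds free haemoglobin, had 25.4 and 34.1, 198 and 282, and 1988 and 1991 CPM. LBP, which presents bacterial lipopolysaccharide to immune cells, had 31.7 and 35.1, 115 and 132, and 193 and 209 CPM. Intermediate cells were thus nearer to high cells for LBP than for HP. The 4 other markers of the class (FGB, HP, SAA1 and APOB) were all called higher than in low cells and lower than in high cells. They came with the label from these data and are read from the same cells as ALB, so their calls describe the class and are no check of it.

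**Figure D2:**
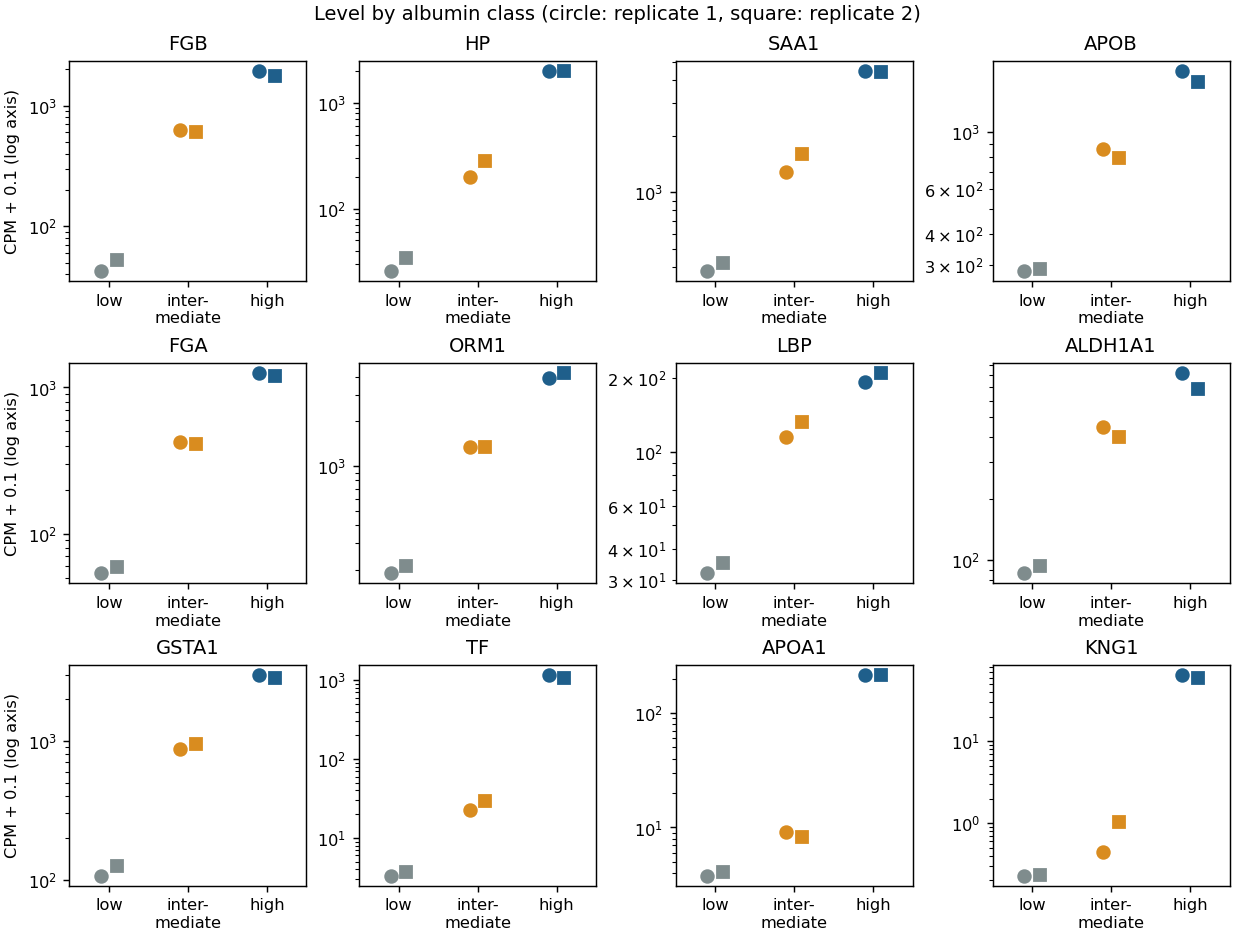
Level of 12 liver genes in CPM plus 0.1 (log axis) in albumin-low, intermediate and albumin-high cells; circles are replicate 1 and squares replicate 2. FGB rose from 42.1 and 51.9 to 623 and 605 CPM, while KNG1 had 0.344 and 0.935 CPM against 64.1 and 58.6 in high cells.

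In the list of apolipoproteins and lipoprotein assembly, 11 of 16 genes were higher than in low cells, 1 was lower (LRP1, a lipoprotein receptor) and 13 were lower than in high cells. APOB, the structural protein of very low density lipoprotein, had 284 and 290 CPM in low, 858 and 791 in intermediate and 1740 and 1575 in high cells (log2 fold change against low 1.58, SE 0.04, edgeR adjusted p = 2.8e-27). APOE, which carries lipoproteins to their receptors, had 403 and 441 CPM in intermediate cells against 114 and 123 in low cells. APOA1, the main protein of high density lipoprotein, had 3.7 and 4.01, 8.95 and 8.11, and 213 and 214 CPM. APOC3, an inhibitor of triglyceride clearance, had 5.26 and 5.69, 11.5 and 12.9, and 265 and 283 CPM. MTTP, which loads lipid onto APOB, had 5.28 and 4.05 CPM in intermediate and 101 and 90.5 in high cells. The intermediate class thus held a larger part of the APOB level of high cells than of their MTTP and APOA1 levels.

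Of the phase 1 enzymes, which oxidise drugs, 20 of 33 were higher than in low cells and 29 lower than in high cells. ALDH1A1, a retinal dehydrogenase, had 86.3 and 94.2, 445 and 401, and 817 and 685 CPM. AKR1C2, an aldo-keto reductase, had 253 and 238, 598 and 471, and 581 and 512 CPM, and its difference from high cells did not pass the test (log2 fold change -0.11, SE 0.05, edgeR adjusted p = 0.081). ADH1B, an alcohol dehydrogenase, had 1 and 3 UMIs in all intermediate cells, and CYP2C8, a cytochrome P450, had 0 and 0.156 CPM. In high cells ADH1B had 81.7 and 66.1 CPM and CYP2C8 had 30.2 and 29 CPM. CYP3A4, the leading drug-oxidising enzyme of adult liver, was near its floor in all 3 classes, at 0.918 and 0.468 CPM in intermediate and 1.59 and 1.06 in high cells.

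Of the phase 2 enzymes, which conjugate drugs, 15 of 24 were higher than in low cells, 1 was lower and 20 were lower than in high cells. GSTA1, a glutathione transferase, had 107 and 125, 879 and 946, and 2974 and 2819 CPM. SULT2A1, a steroid sulfotransferase, had 0.78 and 0.758, 8.83 and 10.9, and 199 and 182 CPM. Of 19 transporters tested, 10 were higher than in low cells; 2 were lower, the organic anion uptake carriers SLCO1B1 and SLCO1B3, and ABCC2, an export pump of the bile canaliculus, stood at 109 and 108, 168 and 148, and 238 and 210 CPM. Of the bile acid genes, 8 of 11 were higher than in low cells; NR1H4, the bile acid receptor, had 0.968 and 1.23, 22.8 and 25.6, and 142 and 127 CPM.

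Among nitrogen, amino acid and glucose genes, 13 of 21 were higher than in low cells and 2 were lower, CPS1, the entry enzyme of the urea cycle, and PCK2, a mitochondrial gluconeogenic enzyme. GLUL, glutamine synthetase, had 226 and 232 CPM in low, 296 and 264 in intermediate and 196 and 213 in high cells and was called above both. Of the hepatic transcription factors, 18 of 24 were higher than in low cells, and 1 was lower (TBX3, a repressor). HNF4A had 17.9 and 19.5, 49.9 and 39.3, and 99.4 and 91.7 CPM. PPARGC1A, a coactivator of gluconeogenic and mitochondrial genes, had 89.3 and 87.8, 223 and 186, and 179 and 172 CPM and was called above both classes (log2 fold change against high 0.15, SE 0.06, edgeR adjusted p = 0.040).

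Outside the liver lists, cytoskeletal genes ran the other way. Of 22 actin and adhesion genes tested, 20 were lower than in low cells and 17 higher than in high cells. ACTB, beta actin, had 3953 and 4035, 2299 and 2570, and 1396 and 1673 CPM, and TPM4, a tropomyosin, had 508 and 499, 162 and 174, and 69.9 and 89.1 CPM. Biliary and progenitor genes were split. Of 9 tested, 4 were higher and 4 lower than in low cells, and 4 and 4 than in high cells. KRT19, a keratin of bile duct cells, had 692 and 699, 325 and 369, and 222 and 266 CPM. In the other direction, SPP1 had 9.27 and 9.65, 32.8 and 24.8, and 106 and 85.2 CPM. SOX9 had 5.59 and 5.49, 12.4 and 15.6, and 23.1 and 25.2 CPM. The mesenchymal list was lower than in low cells in 9 of 9 tested genes. Its summed level fell from 261 and 274 CPM in low to 114 and 132 in intermediate and 59.5 and 71.6 in high cells. COL1A2 and THY1 had 0 UMIs in intermediate cells but were not among the 9, so these zeros show no difference between classes. Of 11 proliferation genes, 9 were lower than in low cells and 11 higher than in high cells. Summed proliferation levels were 2350 and 2381, 1718 and 1604, and 975 and 910 CPM. Endothelial markers summed to 52 and 51.1 CPM in intermediate cells, mostly KDR, against 47.8 and 46.3 in low and 34.5 and 35.2 in high cells. Immune markers summed to 6.2 and 9.35 CPM in intermediate, 12.4 and 11.9 in low and 14.9 and 15.1 in high cells. Only 3 of 8 endothelial and 2 of 8 immune markers had enough counts to be tested. CLEC4M, CD163 and TYROBP, at 0 UMIs in intermediate cells, were not among them. The part of other cell types in the liver results was not tested.

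The largest changes outside the lists had the same 2 directions. The highest log2 fold change against low cells among genes at 20 CPM or more belonged to TM4SF4, a tetraspanin-like membrane protein, at 1.7 and 1.63 CPM in low, 26.7 and 29.3 in intermediate and 157 and 143 in high cells. A1CF, the RNA-binding partner of APOB editing, had 11.7 and 12, 107 and 101, and 325 and 263 CPM. Against low cells POSTN, the matrix protein periostin, had 529 and 525 in low and 59.8 and 107 CPM in intermediate cells. FABP1, a fatty acid carrier of hepatocytes, had 0 and 1 UMIs in intermediate cells and 51.3 and 70.5 CPM in high cells. Of 3262 genes called in both comparisons, 1482 were above low and below high cells, 1349 were below low and above high cells, 215 were above both and 216 below both. By 1.5-fold or more, 10 genes were above both classes and 31 below both.

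The position of intermediate cells between the other classes differed between genes. For each gene, 0 is its CPM in albumin-low cells and 1 its CPM in albumin-high cells. ALB itself stood at 0.102 in replicate 1 and 0.114 in replicate 2, a value that the class limits set. Of 126 other genes at 50 CPM or more in high cells and at least 4-fold above low cells, 87 stood more than 1.5 times above the position of albumin in both libraries, 18 stood more than 1.5 times below it, and 21 did neither. Of the 55 that belong to the liver function lists, 32 stood above, 13 below and 10 neither, so that 13 of the 18 genes below albumin were liver list genes. The median position was 0.246, and the range ran from -0.000939 to 0.706. These positions are a description without a test.

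**Figure D3:**
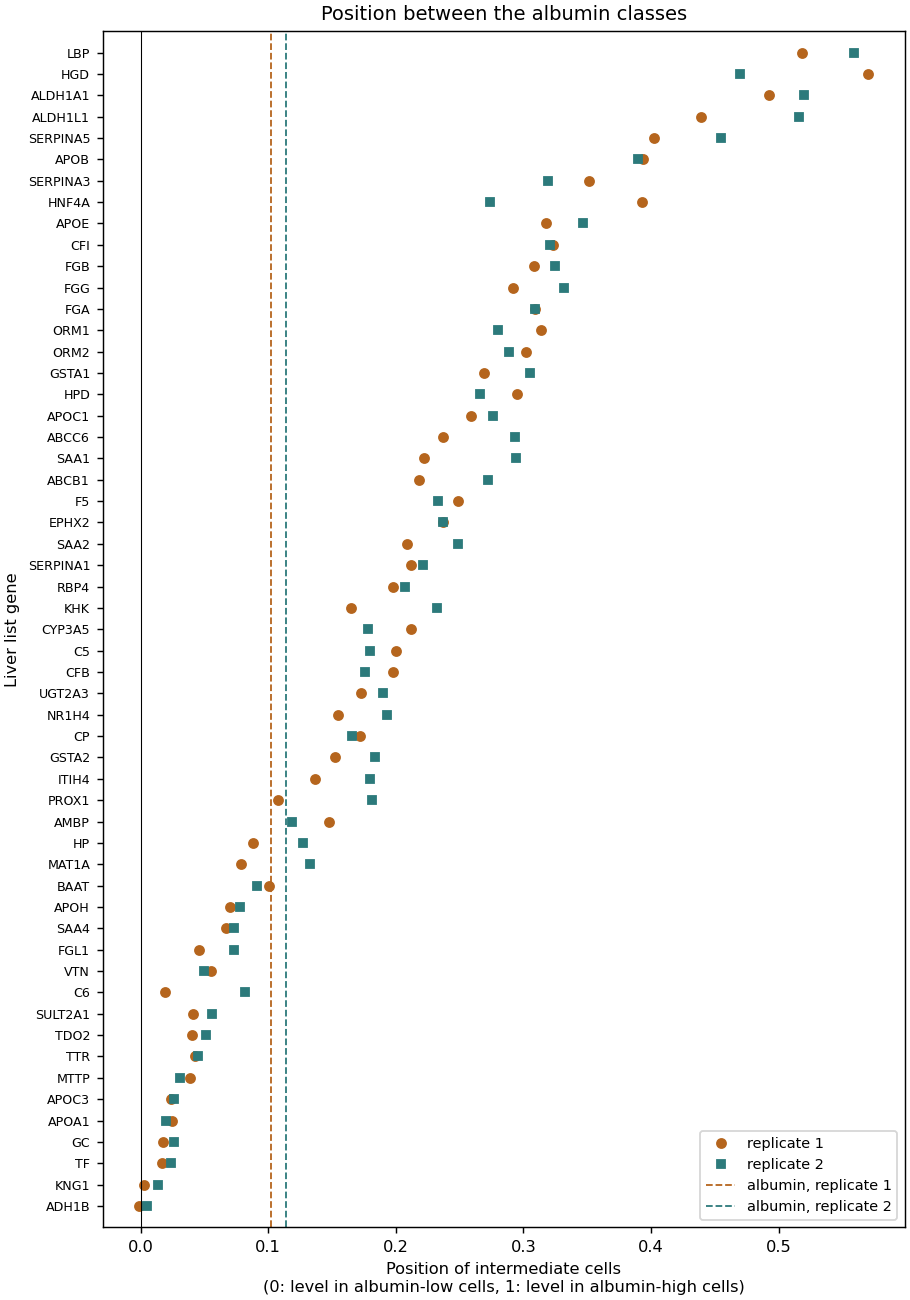
Position of intermediate cells between albumin-low (0) and albumin-high (1) cells for the 55 qualifying genes of the liver function lists; circles are replicate 1, squares replicate 2, and dashed lines the position of albumin, 0.102 and 0.114. LBP lies at 0.518 and 0.559 and ADH1B at -0.001 and 0.005.

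High positions were held by LBP (0.518 and 0.559), HGD, a tyrosine-degrading oxygenase (0.570 and 0.470), ALDH1A1 (0.492 and 0.520) and APOB (0.394 and 0.390). The fibrinogens lay close together, FGA at 0.309 and 0.309, FGB at 0.308 and 0.325 and FGG at 0.292 and 0.332. ORM1 was at 0.314 and 0.280. The highest position of all qualifying genes was that of SGK2, a protein kinase, at 0.724 and 0.687, followed by DDC, the aromatic amino acid decarboxylase, at 0.628 and 0.670. Below albumin were APOC3 (0.024 and 0.026), APOA1 (0.025 and 0.020), GC (0.018 and 0.026), TF (0.017 and 0.024), KNG1 (0.003 and 0.014) and ADH1B (-0.001 and 0.005). HP, at 0.088 and 0.127, lay near albumin.

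The same difference can be read in transcripts. Had the intermediate cells held TF at the position of albumin, 1059 and 798 UMIs would have been counted in replicates 1 and 2, and 197 and 189 were. For ADH1B, 74.7 and 48.8 would have been counted, and 1 and 3 were. For FGB, 2051 and 1573 would have been counted, and 5431 and 3883 were. For ORM1 the numbers were 4938 and 4277 against 11751 and 8545 counted. These genes did not stand at 1 position. The class limits set the position of albumin, so the numbers at that position are a description and no test of where the RNA came from. Free RNA was not removed, and its part in the levels was not tested.

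The class rule sets how far ALB in low cells lies below ALB in high cells, so the shares that follow are a description. In albumin-low cells, ALB stood at 0.287% and 0.384% of its level in high cells. TF (0.280% and 0.340%), GC (0.204% and 0.235%), KNG1 (0.203% and 0.228%) and ADH1B (0.265% and 0.169%) stood at or below that share. A mesenchymal-like cluster of 552 and 590 cells had 5 of 12 mesenchymal markers raised (COL3A1, PDGFRB, SPARC, LUM and DCN). It also had 2 of 16 biliary and progenitor and 2 of 8 endothelial markers raised, and KRT19 at 1273 and 1302 CPM. ALB stood there at 0.309% and 0.61% of the high level and TF at 0.240% and 0.312%. Of its cells, 5 and 15 were intermediate. GC stood there at 0.137% and 0.225%, KNG1 at 0.197% and 0% and ADH1B at 0.308% and 0%. These 3 genes lay below the share of ALB in both libraries, ADH1B in replicate 1 by 0.308% against 0.309%. They were near the floor, at 0.378 and 0.555 CPM for GC, 0.126 and 0 for KNG1 and 0.252 and 0 for ADH1B. The median over the 126 genes was 9.75% and 11.1% in low cells, a value that the choice of genes at least 4-fold above low cells bounds from above. APOB stood at 16.3% and 18.4% in low cells and 19.6% and 22.1% in the mesenchymal-like cluster, and SAA1 at 8.47% and 9.41% and at 16% and 18.6%. APOB and SAA1 thus had larger shares of their high level than ALB in both kinds of cells.

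Shares of cells with a UMI were compared at a common depth. Every cell was thinned to 4000 UMIs, which left out 15 and 16 intermediate cells. The exact 95% intervals used below cover counting error only. Cells of 1 library are not replicates, and the intermediate cells were chosen by ALB. Intervals that lie apart or overlap are therefore descriptions without a test. FGB was detected in 70.2% and 69.6% of intermediate cells, in 4.01% and 6.62% of mesenchymal-like cells and in 95.7% and 95.5% of high cells. ORM1 was detected in 84.1% and 83.9% of intermediate against 27.3% and 28.0% of mesenchymal-like cells, and HP in 26.9% and 32.3% against 4.01% and 5.40%. TF was detected in 7.09% and 8.18% of intermediate against 1.28% and 0.697% of mesenchymal-like cells, with intervals apart in both libraries. GC was detected in 0.733% and 2.31% against 0% and 0.174%, with intervals apart in replicate 2 and overlapping in replicate 1. APOA1 was detected in 2.20% and 3.14% against 0.546% and 1.57%, and its exact 95% intervals overlapped those of the mesenchymal-like cluster in both libraries. For APOC3, at 4.65% and 4.82% against 2.37% and 1.57%, they overlapped in replicate 1 and not in replicate 2. KNG1 was found in 0 of 409 and 1 of 477 intermediate cells and ADH1B in 0 of 409 and 2 of 477. At this depth the intervals of both genes overlapped those of the mesenchymal-like cluster in both libraries. In the summed counts KNG1 was called higher than in low cells (log2 fold change 2.19, SE 0.67, edgeR adjusted p = 0.007). SAA1 (62.7% and 59.1%) and APOB (61.2% and 65.3%) were detected in most mesenchymal-like cells too, so their shares of 76.5% and 75.3%, and 94.6% and 89.5%, in intermediate cells stand on a high base. Median depths before thinning were 13682 and 8000 UMIs in the mesenchymal-like cluster. Unthinned, FGB was detected in 89.2% and 84.0% of intermediate and 9.06% and 10.3% of mesenchymal-like cells.

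**Figure D4:**
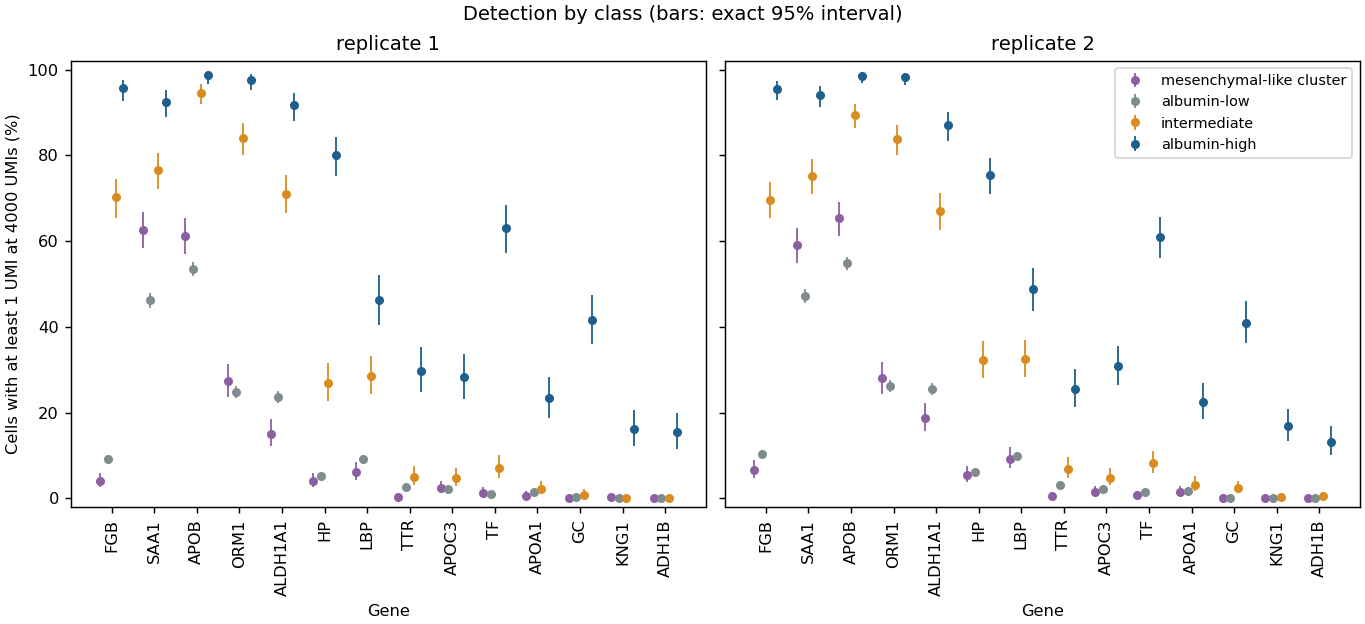
Share of cells with at least 1 UMI of 14 genes after thinning to 4000 UMIs per cell, in percent, in the mesenchymal-like cluster and the 3 albumin classes; bars are exact 95% intervals for counting error. FGB reached 70.2% and 69.6% of intermediate cells, and ADH1B 0 of 409 and 2 of 477 cells.

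Intermediate cells were not 1 cluster. Clusters were built without the genes of the lists, and 1 of 13, led by TF, ALB, HP, GC and APOH with 14 of 20 hepatocyte markers raised, was hepatocyte-like. It held 30% and 29.6% of the intermediate cells, which were 33.1% and 28.7% of its cells. A cluster led by CXCL13 and ADRA1A held 19.3% and 19.9%, 2 clusters led by cell division genes (HIST1H1B and CDK1, and CCNB1 and KIF20A) held 11.6% and 10.8%, and 11.6% and 8.72%, and the mesenchymal-like cluster held 5 and 15 cells. The marker limits behind the cluster names were set after the clusters had been seen, in 2 versions: a first version, asking for 7 of 20 hepatocyte markers, had named 3 clusters hepatocyte-like, and the version used here, asking for 10 of 20, names 1. In 644 members outside the hepatocyte-like cluster (297 and 347), albumin stood at 0.089 and 0.097, 71 of the 126 genes were above it and 19 below, and 70 of the 87 genes above it over all members were among those 71. Leaving out the 3 clusters of the first version gave 70 above and 20 below. The median position of the 126 genes was 0.353 in members inside the hepatocyte-like cluster and 0.190 in those outside it. SAA1 stood at 0.415 and 0.543 inside and 0.132 and 0.181 outside, and FGB at 0.483 and 0.464 inside and 0.227 and 0.262 outside. Values over all members therefore mix cells that differ.

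Liver genes were also higher in intermediate than in low cells of the same cluster. This fit, with library and cluster as the block over 7 clusters that had at least 20 intermediate cells in each library, was added after values within clusters had been seen. It has 13 residual degrees of freedom because clusters of the same 2 libraries serve as blocks; these are not independent cultures, and its p-values measure variation between clusters as well as libraries. It called 14.3% of 11277 genes higher and 12.9% lower, and of 110 liver list genes 81 were higher and 4 lower, with a median log2 fold change of 0.59 against -0.01 over all genes. The cells of a cluster were still cut by ALB, so genes that vary with ALB had to differ here too. In the dividing cluster led by CCNB1, FGB had 32.9 and 29.3 CPM in low and 295 and 247 in intermediate cells. In the cluster led by CXCL13 it had 92.5 and 103, and 547 and 497 CPM. The log2 fold change of FGB within clusters was 2.81 (edgeR adjusted p = 2.0e-14), that of TF 2.34 (edgeR adjusted p = 7.5e-11), and of 11 proliferation genes 3 were lower (TOP2A, CCNB1 and CENPF) and 0 higher. ADH1B had 0 CPM in intermediate cells of 5 of the 7 clusters in both libraries. GLUL, called above low cells in the main fit, was not called within clusters (log2 fold change 0.12, edgeR adjusted p = 0.246). With the hepatocyte-like cluster left out it was called (log2 fold change 0.22, edgeR adjusted p = 0.013).

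Within the intermediate class, some liver genes rose with albumin at every step. Cells were divided at 10, 20 and 35 ALB UMIs per 10000, and a gene rose when its CPM increased at every step in both libraries. Of 7455 genes at 20 CPM or more, 1.74% rose and 1.38% fell. Of 82 liver list genes, 21 (25.6%) rose and 0 fell. FGB went through 323, 588, 794 and 960 CPM in replicate 1 and 373, 494, 819 and 870 in replicate 2. GSTA1 went through 380, 721, 1187 and 1578, and 461, 866, 1254 and 1408 CPM. TF went through 9.73, 17.4, 28.4 and 46.3, and 5.73, 14.4, 29.1 and 89.1 CPM, so that it rose from a low base. The others were ABCC2, ABCC6, ALDH1A1, AOX1, APOB, APOC1, APOE, APOH, C1S, C5, F5, FGA, GSTA2, HGD, HNF4A, NR1H4, RBP4 and SERPINA1. HP and SAA1 did not rise at every step. Of 20 actin and adhesion genes 5 fell, ACTB, ACTG1, FLNA, ITGB1 and TPM4, and ACTB went through 2708, 2344, 2080 and 1821, and 2886, 2774, 2350 and 2035 CPM. Median mitochondrial shares went from 10.7% and 11.2% in the lowest bin to 12% and 12.4% in the highest. Albumin stood at position 0.131 and 0.149 in members inside the hepatocyte-like cluster and at 0.089 and 0.097 in those outside it. The bins were not divided by cluster. The parts of the mix of clusters and of the mitochondrial share in the rise were not tested.

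**Figure D5:**
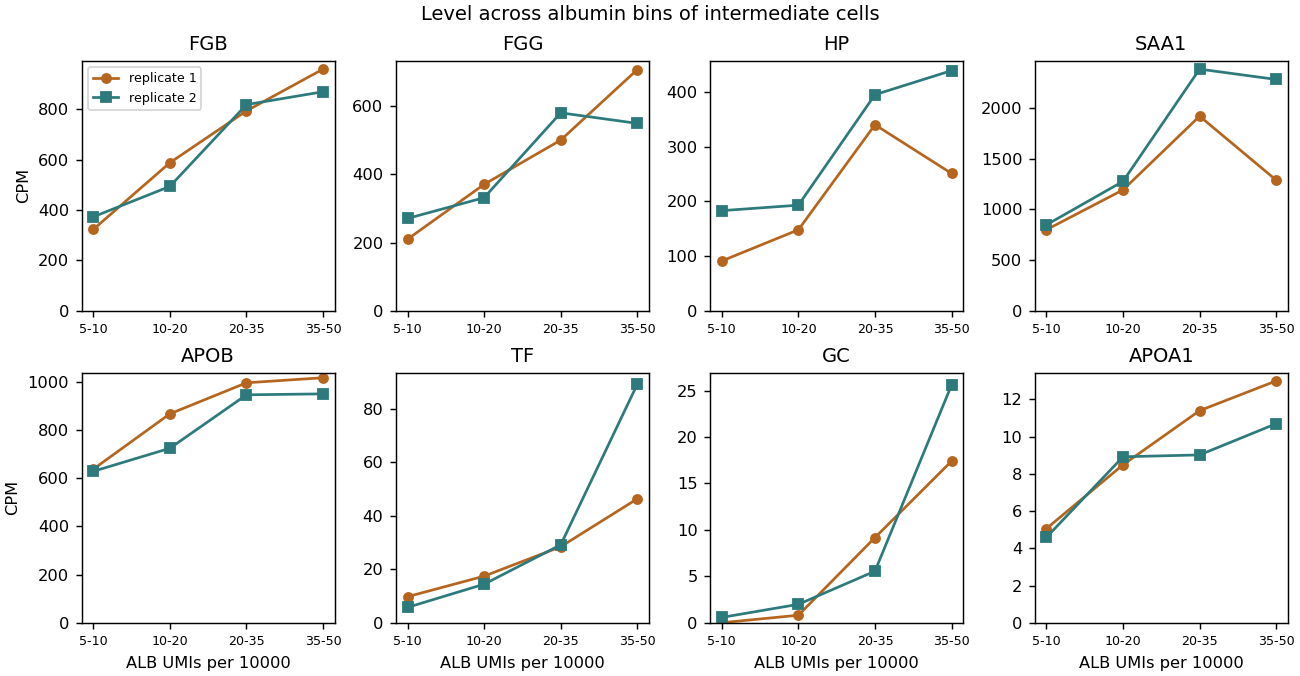
CPM of 8 liver genes in intermediate cells divided by ALB UMIs per 10000, from 5 to 10 up to 35 to 50; circles are replicate 1 and squares replicate 2. FGB rose at every step in both libraries, from 323 and 373 to 960 and 870 CPM.

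The fibrinogen genes varied together from cell to cell. Over 409 and 477 intermediate cells thinned to 4000 UMIs, the correlation of log counts was 0.656 and 0.557 for FGB with FGG, 0.657 and 0.549 for FGA with FGG and 0.618 and 0.540 for FGA with FGB. ORM1 and ORM2, near-identical neighbours whose reads may be split between them, had 0.517 and 0.600, ORM1 and SAA1 had 0.467 and 0.530, and FGB and ORM1 had 0.504 and 0.475. AKR1C1 and AKR1C2, also close in sequence, had 0.457 and 0.415. Over 190 pairs of 20 liver list genes at 200 CPM or more the median of the mean correlation was 0.065. The lowest was AKR1C2 with SAA1, at -0.061 and -0.198. Cells of a library share its processing, so these correlations are descriptions. They were taken over members of all clusters together. FGB had 954 and 842 CPM in members inside the hepatocyte-like cluster and 470 and 498 in those outside it. For ORM1 these levels were 1881 and 1660, and 1101 and 1183 CPM. The part of the mix of clusters in the correlations was not tested.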

How the data were processed

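Each of the 2 deposited matrices gives UMI counts of genes in barcodes, made with Cell Ranger 7.0.0 per the file headers; STAR and GRCh38 are named in the submitters' processing notes. A barcode was kept if it had 500 or more genes, 1000 or more UMIs and no more than 25% of UMIs from mitochondrial genes: 4454 of 4591 and 4894 of 4998. Kept cells had medians of 17568 and 10407 UMIs. The 12 antibody features held 0 UMIs. No correction for free RNA was made.

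The members and lists (20 lists) were chosen with earlier results of these data known. Counts were summed per library and albumin class, and the 6 sums without ALB were fitted with edgeR 4.0.16 (R 4.3.3; TMM, filterByExpr, library as a block, 2 residual degrees of freedom). The block is shared cell source: all classes of a library come from the same suspension. Those degrees of freedom rest on the classes of 2 libraries, not on independent cultures. Each SE was derived from edgeR's F, as the absolute log2 fold change divided by its square root. The edgeR step was run on simulated counts with 200 of 15802 genes changed and a dispersion of 0.005. It called 32 of 50 genes changed 1.5-fold against low and 27 of 50 against high cells, with 13 and 9 false calls. At 4-fold it called 50 and 49 of 50. Far more genes were called in the data than were changed in the simulation, so these numbers do not give its error here.

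Clusters came from 2000 variable genes, 30 principal components, 15 neighbours and Leiden at resolution 0.5 (scanpy 1.11.5, leidenalg 0.10.2), without list, mitochondrial and ribosomal protein genes. A marker counted as raised at 5 CPM or more and at 2 times or more its median over the remaining clusters, with 5 CPM added to both. The mesenchymal-like name needed 3 raised mesenchymal markers without 3 raised proliferation markers, and the hepatocyte-like name 10 of 20 markers with fewer than 3 mesenchymal ones. These limits were set after the clusters had been seen and the hepatocyte limit was changed once, from 7 of 20; both versions are reported. Clusters were computed once. The fits within clusters were added after values within clusters had been seen.

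Named genes were the 5 markers, the most abundant and most changed genes of each list, the most changed genes outside the lists, those at the ends of the position scale, and those above or below both classes. FGG, MTTP, CYP3A4, SULT2A1, HNF4A, HGD, CPS1, LRP1, PCK2, TBX3, SLCO1B3, cluster-leading genes and the genes listed as rising or falling with albumin were named beside them after their values had been seen. Some named genes are not reported here. Alternatives were DESeq2 1.42.0, no filter, no block, thinning, classes from 1 of 2 random parts of the UMIs, a lower limit of 10, the removal of high doublet scores, and each library left out.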

Additional observations from a re-analysis of the deposited data

How the results depend on the processing

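Counts of called genes depended on the tool, the depth and the comparison within clusters. Against albumin-low cells edgeR called 3608 genes higher and 3616 lower; DESeq2 called 2095 and 1754, and cells thinned to 4000 UMIs gave 2073 and 1831 of 12397 tested. Against albumin-high cells the numbers were 2349 and 2645, then 1320 and 1670 with DESeq2, and 859 and 1238 after thinning. Within clusters, against low cells, 1614 were higher and 1453 lower of 11277; without the hepatocyte-like cluster 1530 and 1513 of 11198, and without the 3 clusters named by the first version of the naming rule 1403 and 1216 of 12010. Fewer genes were tested after thinning and within clusters. Without the replicate block the counts were 3498 and 3464 against low and 2136 and 2529 against high cells, and every other planned setting was within 1.5 times of the main count. Without 1 library there are no residual degrees of freedom and only log2 ratios were taken.

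Of 163 named genes called against low cells, 138 kept their call with DESeq2 and 129 of 146 after thinning; of 168 against high cells, 147 and 127 of 148. Directions turned for UGT2B15 (-1.37), SLC22A7 (-0.01) and HMOX1 (0.04) after thinning, for TYMS (0.02) and DNAJB9 (-0.04) without the hepatocyte-like cluster, for TYMS (0.11), MKI67 (0.08) and DNAJB9 (-0.00) without the 3 clusters, and, without replicate 1, for OSGIN1 (-0.01, against 0.46 without replicate 2) and TFCP2L1 (-0.04 and 0.80) against low and FTL (0.02 and -0.13) against high cells. The cause was not tested.

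The share of intermediate cells, 9.8% on average, was 9.06% at no more than 15% mitochondrial UMIs and 11.4% when cells were thinned before the classes were set; it ranged from 9.52% to 10.1% with each library left out. Genes above the position of albumin ranged from 93 to 105 and those below from 18 to 21 with each library left out, and from 70 to 92 and from 14 to 20 under the other settings. Genes rising at every step with albumin were 130, 646 with 3 bins in place of 4, and from 496 to 601 with each library left out; fewer steps or libraries are easier to pass. Without the highest doublet scores 114 genes rose, of which 16 were liver list genes, against 21 in the main count. Rising liver list genes were 43 with 3 bins, 39 without replicate 1 and 34 without replicate 2.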

Other observations

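Hypoxia targets and stress genes were called in both directions against low cells. Over all genes 22.8% were higher and 22.9% lower than in low cells, and 14.9% and 16.7% than in high cells. Of 15 hypoxia targets tested, 7 were higher and 5 lower than in low cells, and 1 was higher and 10 lower than in high cells. NDRG1, a stress-responsive gene, stood at 13 and 14.6 CPM in low, 9.18 and 9.51 in intermediate and 47.1 and 44.1 in high cells, below both. CA9, a carbonic anhydrase, stood at 8.67 and 8.21, 20.7 and 17.5, and 32.4 and 41.1 CPM. Of 19 genes of the ATF4 and unfolded protein response list, 4 were higher and 8 lower than in low cells and 2 higher and 8 lower than in high cells. Of 16 NRF2 targets 4 were higher and 4 lower than in low cells, and 7 and 5 than in high cells. AKR1B10, a reductase among them, stood at 127 and 143, 360 and 255, and 490 and 326 CPM, and SLC7A11, a cystine carrier, at 121 and 121, 61.4 and 72.2, and 52.1 and 44.6 CPM.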
